A study of Homo sapiens with 12 samples.

Results

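The cells described here are untreated A549 cells, taken at 0 h of a time course of TGFβ treatment. A well of a 0 h library was kept when it held 100 to 40000 unique molecular identifiers (UMIs, each standing for 1 captured mRNA molecule), 2000 to 7000 detected genes and at most 35% of its counts on mitochondrial genes. This left 347 cells of the 1871 that pass in the whole series, 181 in replicate 1 and 166 in replicate 2, from 384 wells each. The A549 line was derived from a human lung adenocarcinoma and grows as an epithelial sheet. The other groups used below are the same line after TGFβ for 0.5 h, 12 h, 24 h, 48 h or 96 h, again as 2 libraries each. All groups share the line, the sorting of single cells that excluded propidium iodide and the CEL-Seq2 chemistry, which counts the 3′ ends of polyadenylated RNA. Nothing in the labels tells if the replicate libraries came from different cultures, and p-values below therefore measure only the spread between libraries, which may be technical.

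A cell line is often treated as uniform, but its cells differ in cell cycle phase, in stress and secretory programs and in genome content. In A549, KEAP1 is mutated and the transcription factor NRF2 is constantly active, which keeps aldo-keto reductases and other detoxifying enzymes high. Cells that express secretory epithelial genes and cells that express adhesion and migration genes can coexist in such a culture.

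Kept cells held a median of 23340 UMIs and 4562 genes in replicate 1 and of 22196 UMIs and 4686 genes in replicate 2. The lowest and highest cells held 9947 and 39464 UMIs in replicate 1 and 4787 and 39303 in replicate 2, and mitochondrial genes took a median of 25.0% and 23.6% of counts. No cell barcode was shared by the 0 h libraries. Replicate 1 of 0 h and of 0.5 h shared all 384, so that replicate number and barcode set cannot be told apart. Wells with under 1000 detected genes, taken as background, held on average 4.46% and 5.62% of the protein-coding UMIs of a kept cell, and the share of such wells with a UMI of a gene is given below beside the share of cells.

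The label was first checked against markers. Epithelial genes were uneven, with 8741 and 8260 UMIs of KRT7, 3832 and 6213 of KRT18 and 143 and 113 of CDH1 in replicates 1 and 2. EPCAM had only 18 and 9 UMIs, CLDN3 13 and 9, OCLN 5 and 2, CLDN4 1 and 2, MUC1 0 and 2 and ESRP1 0 and 0. Mesenchymal genes were uneven too, with 3913 and 4573 UMIs of VIM, 1224 and 1200 of AXL and 711 and 713 of FN1. CDH2 had 24 and 34 UMIs, COL1A1 3 and 5 and TAGLN 0 and 0. The 7 of 8 fibroblast genes in the table summed to 70 and 73 UMIs, of which COL6A3 gave 69 and 70. The 15 most abundant protein-coding genes took 9.29% and 8.91% of protein-coding UMIs. FTL, the light chain of ferritin, stood at 9677 and 11820 CPM (counts scaled to a common library total), ACTG1, a cytoplasmic actin, at 9327 and 8220 CPM, AKR1B10, a reductase of aldehydes and retinal, at 8074 and 9143 CPM, and ALDH1A1, a retinal dehydrogenase, at 5032 and 4491 CPM. All CPM values are molecules of protein-coding genes and need no length scaling, since each mRNA is counted at its 3′ end. Of 8 endothelial genes 5 were in the table, and they summed to 2 UMIs in replicate 1 and 0 in replicate 2. The 4 of 10 immune genes in the table summed to 26 and 33 UMIs, of which CD14 gave 26 and 32. PECAM1, which marks endothelium, and PTPRC, which marks leukocytes, were listed at 0, as were the alveolar type 2 genes SFTPC, SFTPB, SFTPA2, NAPSA and LAMP3. Other genes of the alveolar type 2 and lung lineage list had UMIs, among them FOXA2 (224 and 177) and HNF4A (99 and 107). That list summed to 424 and 376 UMIs. An entry of 0 was not read as absence, because MCM2, a subunit of the replication helicase and a gene looked up after values were seen, was also listed at 0 in these dividing cells.

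To find genes that differed between cells by more than counting noise, the mean squared deviation of a gene's UMIs from the number expected at each cell's depth was divided by that expected number. This ratio is 1 when molecules are sampled at random, and it was compared with the trend over genes of similar mean in the same library. Among 6423 genes with a mean of at least 0.25 UMIs per cell in both libraries the median ratio was 1.11 in replicate 1 and 1.13 in replicate 2. Most genes thus lay close to counting noise. At 1.5 times the trend, 347 genes (5.4%) were called in replicate 1 and 326 (5.08%) in replicate 2. The 243 genes called in both made up 3.78% of those tested, 70.0% of the calls of replicate 1 and 74.5% of the calls of replicate 2. At least 2 times the trend was reached in both by 126 genes and at least 4 times by 30. EDN1 lay just inside the limit at 1.521 and 1.503 times, and GABRA5 at 1.499 and 1.947 times and NRCAM at 1.498 and 1.531 times lay just outside. After cells were thinned to 1 depth, 161 of the 243 genes passed, with fewer genes tested.

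Libraries that the rule did not use gave a check on these calls. Of the 243 genes, 237 had enough UMIs in both 0.5 h libraries, and 186 of them (78.5%) were at 1.5 times the trend or more in both. Over all 6272 genes measured at both times the share was 3.59%.

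**Figure D1:**
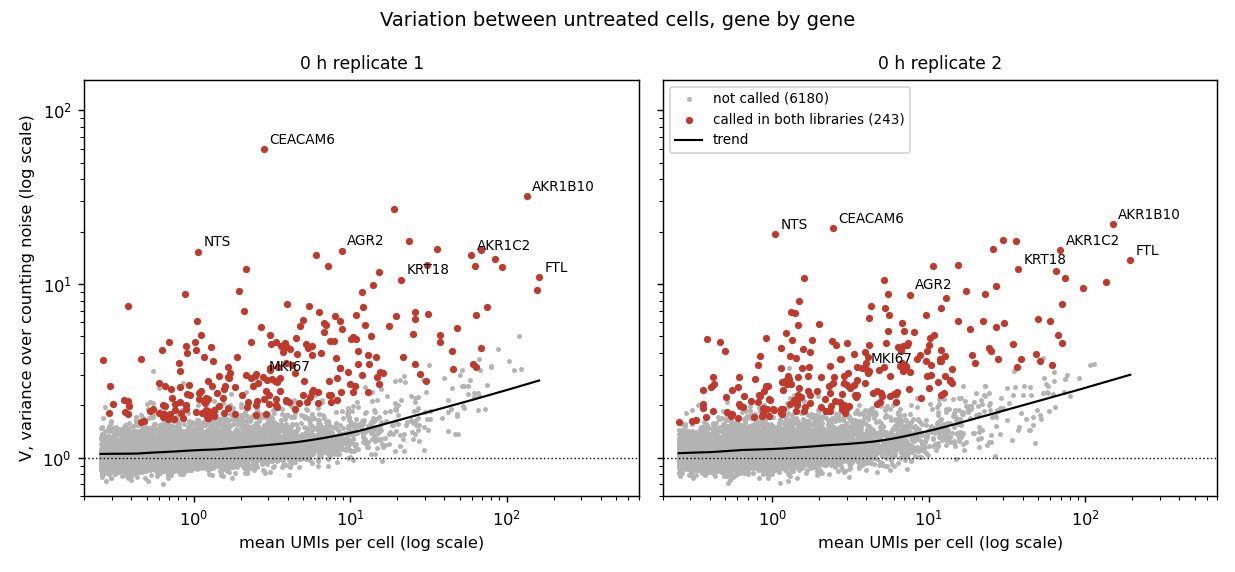
Variation between untreated cells, as variance over counting noise (y axis, log scale), against the mean UMIs per cell (x axis, log scale) of each tested gene in replicates 1 and 2. Red points are the 243 genes called in both libraries, grey points the 6180 others, the line is the trend and the dotted line is counting noise, and CEACAM6 and NTS stand far above genes of similar mean.

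The 4 genes given as markers of these cells varied in different ways. AKR1B10 (chr7:134527567-134541412, plus strand, GRCh38) was found in all 347 cells, and its level per 10000 UMIs in replicate 1 ran from 7.79 through a median of 77.2 to 242.1. In replicate 2 it ran from 22.99 through 92.95 to 193.7. Its coefficient of variation beyond counting noise was 0.47 and 0.37. Whether its level was graded over cells or split into groups was not tested. AKR1B10 also had the highest level of the 4 in background wells, with a mean of 6.62 and 11.4 UMIs in background wells against 134.4 and 150.3 in cells. Detection alone therefore does not show that the lowest cells lay above background.

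AGR2 (chr7:16791811-16833433, minus strand), a disulfide isomerase of secretory cells, was detected in 92.8% and 91.0% of cells and in 19.2% and 28.1% of background wells. Its median was 3.40 and 3.11 per 10000 and its highest cell 55.6 and 34.5. The top 10% of cells held 42.7% and 35.9% of all AGR2 UMIs.

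CEACAM6 (chr19:41750977-41772211, plus strand), a membrane-anchored adhesion molecule of epithelia, was the gene furthest above the trend in both libraries, at 50.9 and 17.7 times the trend. It had a UMI in 33.7% and 41.6% of cells, against 13.95% and 18.56% of background wells, and a median of 0 in both libraries. Its highest cell reached 101.2 and 26.6 per 10000. The top 10% of cells, 19 and 17 in number, held 89.04% and 83.42% of its UMIs. A few cells thus carried nearly all of this transcript. In those cells AGR2 stood at 1670 CPM against 406.9 CPM in the rest in replicate 1, and at 864.2 against 415.9 CPM in replicate 2. SLPI, a secreted inhibitor of leukocyte protease, stood at 281.7 against 39.0 CPM and at 202.7 against 33.2 CPM, whereas the AKR1B10 ratio was 1.19 and 1.197. These groups were cut by CEACAM6 itself and the values are descriptions.

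MKI67 (chr10:128096659-128126423, minus strand), which coats chromosomes in dividing cells, had a UMI in 75.1% and 86.8% of cells and in 12.2% and 28.1% of background wells. Its median was 1.16 and 1.80 per 10000 and its highest cell 8.74 and 12.5. Over the 181 and 166 cells, which within a library share its depth and preparation, AGR2 and CEACAM6 correlated at r = 0.62 and 0.36, and AKR1B10 and AGR2 at 0.29 and 0.32. Pairs with MKI67 lay between -0.22 and 0.12.

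**Figure D2:**
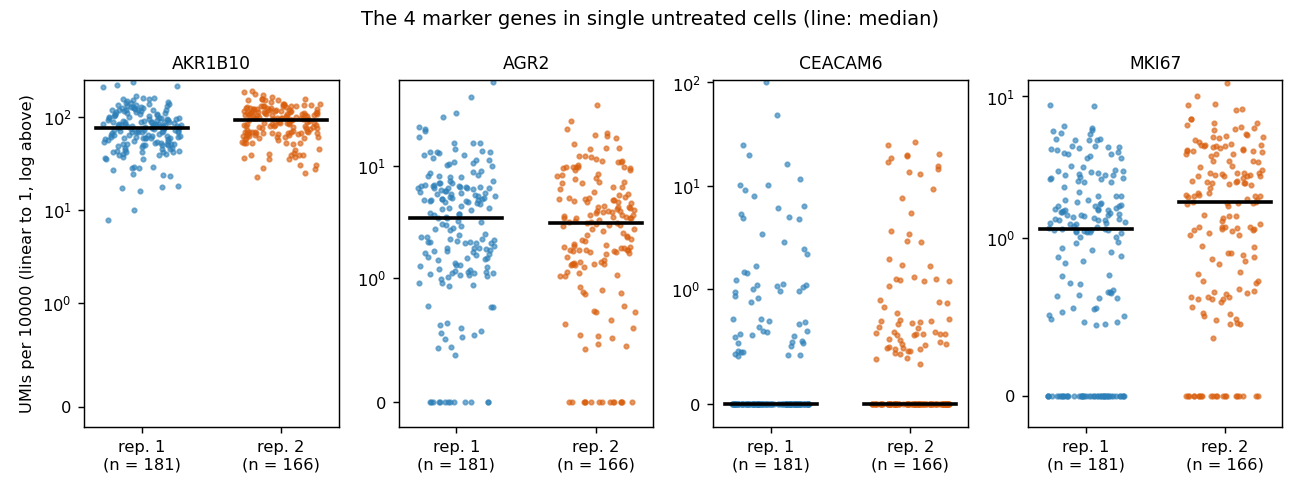
Level of AKR1B10, AGR2, CEACAM6 and MKI67 in each untreated cell, as UMIs per 10000 protein-coding UMIs on an axis that is linear up to 1 and logarithmic above, for replicates 1 and 2, with each panel on its own scale. Each point is a cell and the bar the median, and AKR1B10 is seen in every cell while most cells lack a CEACAM6 UMI and a few reach 101.2 and 26.6.

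Secretory genes were the list furthest above the trend beside the 4 markers. Counts of called list members here and below stand beside 3.78% of all tested genes, and the lists were chosen with earlier results of these data known. Of 11 secretory epithelial genes tested, 10 were called (CEACAM6, AGR2, ALDH1A1, FGB, CPS1, SLPI, FGG, S100P, GPX2 and FGA), with a median excess over the trend of 2.04 on the log2 scale against -0.003 over all tested genes. Neurotensin (NTS), a gut and brain peptide, had a UMI in 17.7% and 19.3% of cells and in 4.07% and 3.59% of background wells, and the top 10% of cells held 93.3% and 91.4% of it. Like CEACAM6, NTS was concentrated in few cells. The matrix protease MMP7 lay at 9.70 and 5.77 times the trend and the bladder-type membrane protein UPK1B at 7.97 and 6.98 times. Of 11 epithelial genes 6 were called, among them KRT18 and KRT8, partner keratins of simple epithelia, KRT7, KRT19, CD24 and JUP. KRT18 ran from 0.66 through a median of 10.3 to 64.3 per 10000 in replicate 1 and from 3.63 through 19.6 to 64.0 in replicate 2. KRT81, a hair-type keratin, lay at 8.45 and 9.12 times, and 7 of 10 S100 and keratinization genes were called. IGF2R, the receptor that clears IGF2, was at 16.8 and 5.04 times, but 1 cell held 291 of its UMIs and its mean in background wells was 7.76 and 6.34 UMIs.

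Chemokines and matrix genes were variable too. Of 12 NF-kB and cytokine genes 8 were called (66.7%), beside 3.78% of all tested genes. They were led by the neutrophil chemoattractant CXCL5 at 11.5 and 8.34 times and the monocyte chemoattractant CCL2 at 10.5 and 5.03 times, with CXCL8, CXCL1, CXCL2, NFKBIA, BIRC3 and TNFAIP2. Of 6 mesenchymal genes 5 were called. Fibronectin (FN1) lay at 6.31 and 6.09 times the trend, with a median of 1.35 and 1.73 per 10000 and a highest cell of 28.3 and 25.5. The receptor tyrosine kinase AXL was at 4.08 and 3.33 times, the intermediate filament VIM at 2.26 and 2.04 times and the proteoglycan VCAN at 2.88 and 2.23 times. Before any TGFβ was added, 7 of 14 TGFβ and SMAD target genes varied, among them ID1, an inhibitor of bHLH factors, at 3.45 and 3.10 times. Of 20 immediate early genes 7 were called, including FOS at 2.31 and 2.86 times and JUNB at 1.85 and 3.78 times.

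Detoxifying enzymes combined high level with high variation. Of 30 NRF2 targets and aldo-keto reductases tested, 14 were called (46.7%, beside 3.78% of all tested genes), with a median excess of 0.62. AKR1C2 lay at 6.83 times in both libraries, AKR1C3 at 7.06 and 5.26 times, ALDH3A1 at 10.4 and 8.84 times and AKR1B1 at 7.02 and 9.63 times. AKR1C1, AKR1C2 and AKR1C3 are related copies of similar sequence, so the split of molecules among them is uncertain. NQO1, the quinone reductase often used to read NRF2 activity, was lower in this order at 3.03 and 2.78 times. The 90th percentile of the summed list over cells was 1.84 and 1.75 times the 10th.

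Ribosomal protein genes stayed near the trend. Only 1 of 75 cytosolic ribosomal protein genes was called (RPS2, at 5.81 and 2.23 times), the median excess of the group was -0.12, and its total had a 90th percentile 1.27 and 1.24 times the 10th. RPLP1, among the 15 most abundant genes, was at 0.860 and 0.947 times the trend. Of 20 cholesterol and fatty acid genes 1 was called (SCD, 5% of them), a share near the 3.78% of all tested genes. The share was 9.09% of 22 endoplasmic reticulum chaperone and unfolded protein response genes (PSAT1 and HSPA5), 16.7% of 12 p53 targets and CDK inhibitors (GDF15 and CDKN1A), 20% of 10 heat shock genes (HSP90AA1 and HSPB1) and 20% of 20 hypoxia and glycolysis genes (SLC2A3, ADM, DDIT4 and PFKFB3). None of 3 lung lineage genes passed.

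Cell cycle genes were the largest coordinated set. Of 45 G2/M and mitosis genes 27 were called (60%, beside 3.78% of all tested genes), with a median excess of 0.84. Of 34 G1/S and replication genes only 6 were called (RRM2, PCNA, PCLAF, FEN1, MCM7 and CDC6, 17.65%), with a median excess of 0.20. The summed G2/M genes ran from 6.14 through a median of 61.1 to 232.4 per 10000 in replicate 1 and from 10.7 through 60.6 to 196.8 in replicate 2. Their 90th percentile was 6.69 and 5.44 times the 10th, against 3.33 and 3.30 times for the G1/S genes. The mitotic genes thus spanned a wider range over cells than the replication genes. KPNA2, an importin that carries cell cycle proteins, lay at 6.55 and 5.47 times the trend, CCNB1, the mitotic cyclin B, at 3.48 and 3.11 times, and H4C3, a histone H4 gene, at 5.95 and 8.74 times.

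To ask which genes vary together, correlations over cells were taken of each gene's deviation from its expected count, among the 243 called genes. Of 29403 pairs, 1390 in replicate 1 and 1370 in replicate 2 had r of at least 0.3, and 926 (3.15%) had it in both, joining 155 genes. Only 123 pairs (0.418%) had r of -0.3 or lower in both. Thinned to 1 depth, cells gave 599 and 54 such pairs. The mean over all pairs was 0.0112 and 0.0105. KRT18 with KRT8 gave r = 0.78 and 0.85, AKR1C2 with AKR1C3 0.77 and 0.77, and TOP2A, the DNA-untangling topoisomerase, with UBE2C, a ubiquitin-conjugating enzyme of mitosis, 0.75 and 0.76. AKR1C2 and AKR1C3 are related copies, and how far the uncertain split of their molecules sets the r between them was not tested. In the 0.5 h libraries, which were not used to pick pairs, 625 of the 926 pairs (67.5%) again passed in both, which is 81.3% of the 769 pairs that passed there.

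Clustering in replicate 1 gave 15 groups with 160 genes. In replicate 2, 8 groups with 120 genes kept a mean r of at least 0.2, and only these are described by their genes. Their genes were picked for variation in both libraries, but their grouping used replicate 1 alone. The other 7 had a mean r of 0.080 to 0.162 there. The group led by KPNA2 held 39 genes, 25 of them on the G2/M list, with a mean r of 0.44 in replicate 1, 0.41 in replicate 2 and 0.41 and 0.37 at 0.5 h. The group led by H4C3 held 10 genes, of which 6 were on the G1/S and replication list (RRM2, MCM7, PCLAF, PCNA, FEN1 and CDC6) and 2 on the G2/M list (CDK1 and HMGB2), beside the centromere chaperone HJURP, with a mean r of 0.31 and 0.33. Scores of these 2 groups were only loosely related over cells (r = 0.19 and 0.10), though single pairs crossed between them, such as the cyclin-dependent kinase CDK1 with UBE2C at 0.60 and 0.56. The H4C3 score rose with a cell's depth (r with log UMIs 0.31 and 0.24), and with depth and mitochondrial share regressed out the mean r of its genes in replicate 2 was 0.32.

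Because these groups moved together over cells, their promoters were read for short motifs, in RefSeq windows of 300 bases on GRCh38.p14 that run from 250 bases before to 50 after the start. TTTGAA, the core of the cell cycle homology region, was searched on both strands and stood in 19 of the 31 KPNA2-group promoters that matched (61.3%) and in 15.4% of all 27195 promoters. CCAAT stood in 27 of 31 (87.1%) and in 35.7% of all. In the H4C3 group CCAAT stood in 6 of 8 matched promoters (75%) and TTTGAA in 2 of 8 (25%). TTGGCGC, a binding motif of E2F factors that can overlap the reverse of CCAAT, stood in 4 of the 8 matched promoters of the H4C3 group (50%), in 0 of the 31 and in 3.14% of all. The promoters of CCNB2 (chr15:59104896-59105195, plus strand) and CDC20 (chr1:43358731-43359030, plus strand) are shown for the first pair of motifs, and those of CDC6 (chr17:40287629-40287928, plus strand) and MCM7 (chr7:100101348-100101647, minus strand) for TTGGCGC, each on the gene's strand with the motif of its pair in capitals on either strand. CCNB2, a mitotic cyclin, holds 1 TTTGAA and 4 CCAAT, and CDC20, the activator of the anaphase-promoting complex, 2 of each. CDC6, which loads the replication helicase, and MCM7, a subunit of it, hold 1 TTGGCGC each.
CCNB2: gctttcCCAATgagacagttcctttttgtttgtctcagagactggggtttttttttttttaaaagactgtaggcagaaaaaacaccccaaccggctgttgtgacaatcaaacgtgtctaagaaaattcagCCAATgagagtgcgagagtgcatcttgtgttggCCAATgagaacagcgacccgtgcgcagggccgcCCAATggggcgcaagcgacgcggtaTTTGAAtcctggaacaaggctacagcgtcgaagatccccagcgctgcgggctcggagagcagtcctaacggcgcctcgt
CDC20: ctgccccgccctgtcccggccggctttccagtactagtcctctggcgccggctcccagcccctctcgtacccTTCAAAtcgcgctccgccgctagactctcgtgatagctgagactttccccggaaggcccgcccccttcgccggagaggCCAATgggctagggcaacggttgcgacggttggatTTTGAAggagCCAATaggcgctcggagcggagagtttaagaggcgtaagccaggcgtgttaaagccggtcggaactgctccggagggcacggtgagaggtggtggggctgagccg
CDC6: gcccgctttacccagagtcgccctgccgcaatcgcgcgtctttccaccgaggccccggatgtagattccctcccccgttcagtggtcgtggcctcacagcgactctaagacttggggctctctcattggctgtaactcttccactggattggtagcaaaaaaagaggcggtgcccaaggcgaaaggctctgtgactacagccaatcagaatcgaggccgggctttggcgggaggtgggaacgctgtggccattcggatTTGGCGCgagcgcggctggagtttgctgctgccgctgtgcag
MCM7: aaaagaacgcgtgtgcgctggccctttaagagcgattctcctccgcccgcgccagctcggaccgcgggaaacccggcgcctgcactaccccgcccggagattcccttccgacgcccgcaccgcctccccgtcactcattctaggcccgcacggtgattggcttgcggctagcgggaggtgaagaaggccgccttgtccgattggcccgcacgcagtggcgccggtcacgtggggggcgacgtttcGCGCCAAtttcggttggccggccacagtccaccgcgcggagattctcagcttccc

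Promoters of the AKR1C2 group below were searched for TGACNNNGC, the core of the antioxidant response element, in the same way. It stood in 3 of 19 matched promoters (15.8%) and in 13.6% of all. A match or its lack describes these letters in this window only.

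The group led by AKR1C2 held 23 genes and a mean r of 0.32 and 0.30 (0.29 and 0.27 at 0.5 h). Beside AKR1C1, AKR1C3 and AKR1B10 it contained NQO1, ALDH1A1, FTL, the epoxide hydrolase EPHX1, the carbonic anhydrase CA12, ANXA4, CD24 and the synaptic protein CPLX2, and 8 of its genes were on the NRF2 list. AKR1C2 ran from 0.87 through a median of 36.1 to 90.5 per 10000 in replicate 1 and from 7.33 through 42.7 to 133.2 in replicate 2. The lowest cell of replicate 1 held 1 UMI, and background wells held a mean of 2.45 and 4.37 UMIs, so that cell was not above background.

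The group led by AXL held 18 genes, with a mean r of 0.29 and 0.27 (0.23 and 0.23 at 0.5 h). It joined AXL, the membrane scaffold CAV1, the urokinase PLAU, the retinoic acid-inducible receptor GPRC5A, the actin-binding protein COTL1, the actin ACTG1, VIM, KRT7, CRIM1 and ANTXR1. AXL ran from 0 through a median of 2.95 to 17.8 per 10000 in replicate 1 and from 0 through 3.12 to 15.9 in replicate 2. The mean r of VIM, a mesenchymal filament, with the other genes of the group was 0.21 and 0.29, and that of the epithelial keratin KRT7 was 0.30 and 0.25 (0.10 and 0.17 at 0.5 h).

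The AKR1C2 and AXL groups ran against each other. Their scores correlated at r = -0.72 over 181 cells and -0.77 over 166 cells, and at -0.68 and -0.71 at 0.5 h. Single pairs showed the same sign, with CAV1 against AKR1C3 at -0.57 and -0.54 and AXL against AKR1C2 at -0.53 and -0.53. The mitochondrial share moved with both, at r of 0.31 and 0.25 with the AKR1C2 score and -0.22 and -0.17 with the AXL score. With depth and mitochondrial share regressed out, the mean r in replicate 2 was 0.28 for the AKR1C2 group and 0.25 for the AXL group. In treated cells the same genes gave r = -0.49 and -0.57 after 12 h and -0.51 and -0.56 after 24 h. The values were -0.34 and -0.13 after 48 h, and -0.06 and -0.28 over the 54 and 64 cells of 96 h. Whether these values differ from 0 h was not tested.

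**Figure D3:**
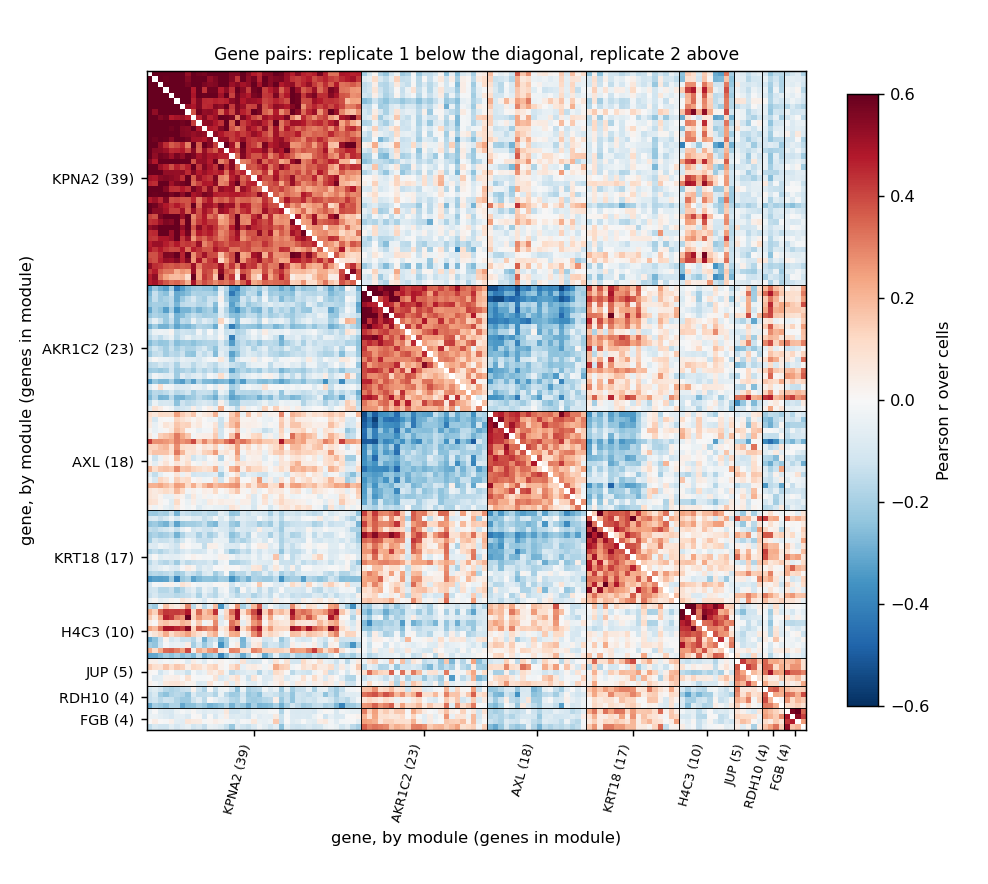
Correlation over untreated cells between the genes of the 8 groups that held in replicate 2, with pairs of replicate 1 below the diagonal and pairs of replicate 2 above it, both axes listing the genes by group. Color gives Pearson's r from -0.6 (blue) to 0.6 (red), and the groups show as red blocks on the diagonal, with the AKR1C2 and AXL groups in blue against each other in both libraries.

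**Figure D4:**
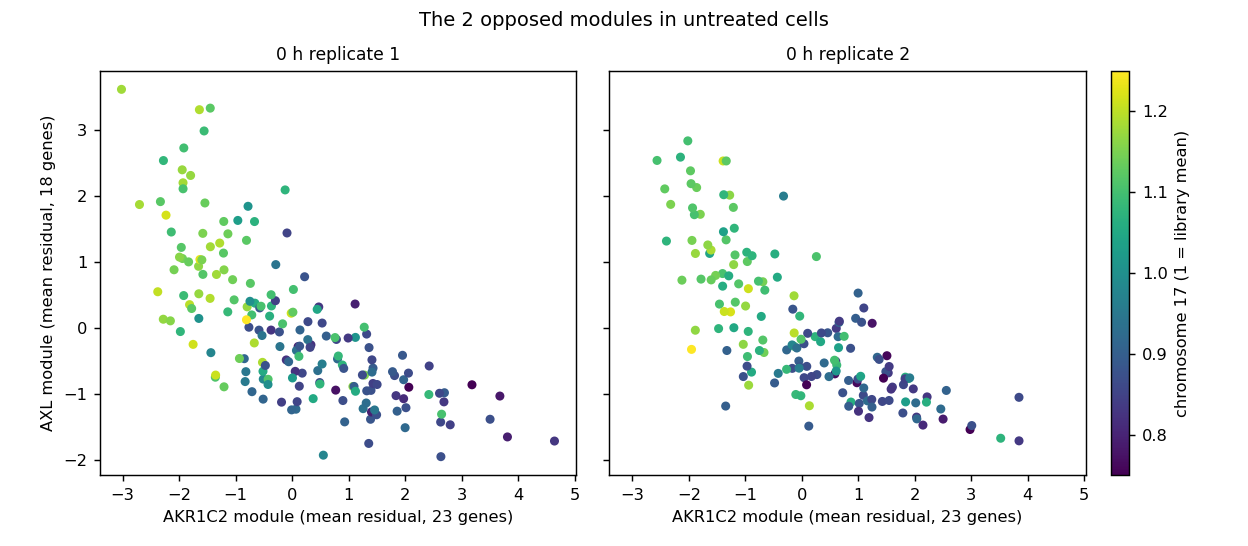
Score of the AXL group (18 genes) against score of the AKR1C2 group (23 genes), as mean residuals, in each untreated cell of replicates 1 and 2, colored by the cell's chromosome 17 value described below. Points run as a continuous band from low AKR1C2 with high AXL to the reverse, with r = -0.72 and -0.77, and cells of a low chromosome 17 value lie mostly toward high AKR1C2.

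The group led by KRT18 held 17 genes: KRT18, KRT8, AGR2, CEACAM6, GPX2, SLPI, ALDH3A1, CXCL5, MMP7, S100A6, S100A4, S100A10, KRT4, PDLIM5, SLC12A2, SYT1 and CYP26B1. Of these, 4 were on the secretory list, 4 on the S100 and keratinization list and 2 on the epithelial list. Its mean r was 0.31 in replicate 1 and 0.20 in replicate 2, right at the limit used, and 0.22 and 0.21 at 0.5 h, and it was 0.18 in replicate 2 after thinning. Its score rose with the AKR1C2 score (r = 0.42 and 0.47) and fell with the AXL score (-0.48 and -0.49). The epithelial genes were not 1 block, since KRT7 was grouped with AXL in replicate 1. JUP, a junction plakoglobin, led a group of 5 with KRT19, FN1, the drug exporter ABCG2 and the scavenger receptor SCARA5 (mean r 0.28 and 0.25, and 0.19 in replicate 2 after thinning). Fibrinogen chains FGB, FGA and FGG and the fibrinogen-like hepatokine FGL1 varied together, at a mean r of 0.38 and 0.47 and of 0.24 and 0.32 at 0.5 h. FGB had a mean of only 0.38 and 0.50 UMIs per cell, so this group rests on few molecules. A group of 4 joined RDH10, a retinol dehydrogenase, with PTGS2, the inducible prostaglandin synthase, ATP1B1 and GLRX (mean r 0.30 and 0.23, and 0.26 and 0.19 at 0.5 h). On log-transformed levels its mean r in replicate 2 was 0.192. Its score followed that of the JUP group (r = 0.27 and 0.54). When groups were built in replicate 2 instead, the KRT18, JUP and RDH10 groups did not come together again, with at most 4 of 17, 2 of 5 and 2 of 4 of their genes in 1 group. KRT18, KRT8 and GPX2 then fell in the group that held AKR1C2. CEACAM6, SLPI, MMP7 and PDLIM5 fell in another group, and AGR2, ALDH3A1 and SLC12A2 stood together apart from both. The KPNA2 group returned with all 39 genes, the H4C3 group with 8 of 10, the AKR1C2 group with 16 of 23, the AXL group with 13 of 18 and the FGB group with 4 of 4, the last inside a group of 17. NQO1, ALDH1A1, FTL and CD24 were not among those 16, and KRT7 and ACTG1 were not among those 13.

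Variation was also read by chromosome, from each cell's share of protein-coding UMIs that came from the tested genes of a chromosome that were not called, divided by the library mean. Chromosome 17 varied most, with a coefficient of variation beyond counting noise of 12.9% and 13.2% (11.7% and 13.1% at 0.5 h), where independent variation of its 353 genes would give 2.77% and 2.78%. Chromosome 2 had 9.94% and 7.32%, chromosome 9 had 9.20% and 9.82% and chromosome 12 had 7.42% and 7.52%. The 19 other chromosomes lay between 2.13% and 7.77%, with chromosome 1 at 2.13% and 2.78%. Both sides of the widest gap between tested genes on chromosome 17 (21284672 to 27294076) moved together over cells, at r = 0.79 and 0.77. On chromosome 9 the sides did not (r = -0.08 and 0.03), and the 184 genes beyond its gap, from position 68780065 on the long arm (9q), were read apart from the 67 before it.

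Cells fell into a lower and an upper group on chromosome 17. The limit of 0.98 between them was set after the values were seen, and 10 and 5 cells lay within 0.03 of it. Below it were 91 cells (50.3%) in replicate 1 and 80 (48.2%) in replicate 2, with median values of 0.873 and 0.870. Above it the medians were 1.12 and 1.104, so that upper cells had 1.28 and 1.27 times the value of lower cells. In the same cells the 9q median was 0.837 below and 1.15 above in replicate 1, and 0.848 and 1.12 in replicate 2. Chromosome 17 and 9q values correlated at r = 0.84 and 0.74, while the short arm side of chromosome 9 gave 0.002 and 0.043 with chromosome 17, and chromosome 2 gave 0.13 and 0.07. Of 372 tested genes on chromosome 17, 309 (83.1%) correlated positively in both libraries with the value of the other genes there. Of 184 genes of 9q, 147 (79.9%) correlated positively in both libraries with the chromosome 17 value. Among 5786 genes elsewhere the share was 35.4%. The pattern was spread over many genes of both regions. An r of at least 0.3 in both libraries was reached by only 20 of the 372 genes, and by 14 of the 5786 elsewhere.

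Depth and mitochondrial share moved only slightly with this value. Its r with log UMIs was 0.07 and 0.17 and with the mitochondrial share -0.16 and -0.22. Lower cells held a median of 15830 protein-coding UMIs and upper cells 16920 in replicate 1, and 15060 and 16880 in replicate 2. A single cell of replicate 2 stood at 0.394. In the 10 treated libraries 44.3% to 64.8% of cells lay below the limit, and the r of chromosome 17 with 9q was 0.585 to 0.880. DNA was not measured here, and the source of the difference between cells was not tested. Values for chromosome 2 were below 0.9 in 28 cells (15.5%) and 15 cells (9.04%), and those for chromosome 12 above 1.1 in 19 (10.5%) and 19 (11.4%).

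**Figure D5:**
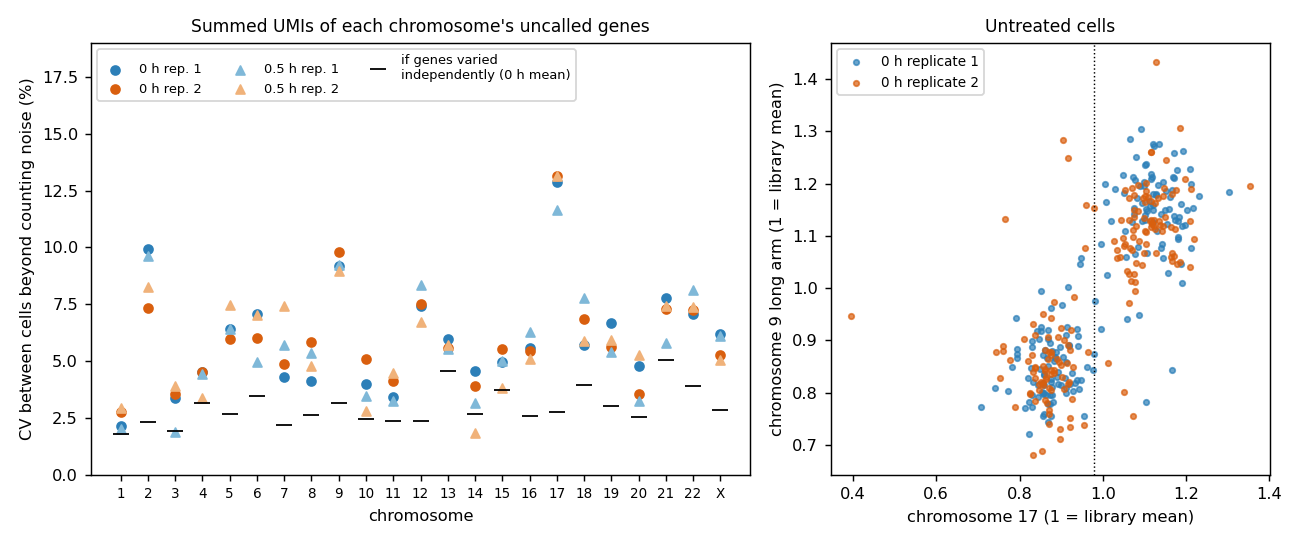
At left, the coefficient of variation between cells beyond counting noise of each chromosome's summed uncalled genes in the 0 h and 0.5 h libraries, with dashes for the value if genes varied independently. At right, the long arm value of chromosome 9 against the chromosome 17 value of each untreated cell, where cells form a lower and an upper group around the dotted limit of 0.98, with r = 0.84 and 0.74.

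The opposed gene groups followed the chromosome 17 value although their own genes on that chromosome were left out. The AKR1C2 score correlated with it at r = -0.70 and -0.68 (-0.63 and -0.63 at 0.5 h) and the AXL score at 0.57 and 0.56 (0.53 and 0.51 at 0.5 h). AKR1C2, which lies on chromosome 10, stood at 4654 CPM in lower and 2501 CPM in upper cells of replicate 1, and at 5562 and 3093 CPM in replicate 2. CPLX2, on chromosome 5, stood at 775.1 and 199.0 CPM in replicate 1 and at 751.0 and 273.0 CPM in replicate 2. AXL, on chromosome 19, went the other way, from 263.8 CPM in lower to 545.7 CPM in upper cells and from 290.1 to 564.7 CPM. PLAU rose likewise from 98.7 to 271.2 CPM and from 102.3 to 219.8 CPM. CEACAM6 stood at 251.7 and 89.3 CPM in lower and upper cells of replicate 1 and at 236.1 and 74.6 CPM in replicate 2. These CEACAM6 values rest on few cells, since 19 and 17 cells held most of its UMIs. NQO1 differed less, at 4060 and 3615 CPM and at 3736 and 3514 CPM, and MKI67 had no common direction, at 163.1 and 169.4 CPM and at 268.3 and 217.8 CPM. The KRT18 score gave r = -0.58 and -0.50 with chromosome 2 and -0.38 and -0.30 with chromosome 17. All of these are descriptions over the cells of 1 library, which share its depth and preparation.

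To assess whether variation itself changed with TGFβ, the excess over the trend was compared between time points across libraries with limma, for 5045 genes measured in all 12. Against 0.5 h, 0 genes were more variable at 0 h and 0 less (both 0% of those tested), and 123 had an unadjusted p under 0.05. Against 12 h and 24 h together, 4 genes were more variable in untreated cells (0.0793% of tested genes) and 2 less (0.0396%), with 183 at an unadjusted p under 0.05. The median difference over all genes was -0.002.

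CTSL, a lysosomal protease, had an excess of 2.95 and 3.04 at 0 h and of 1.07, 1.004, 1.27 and 0.71 in the libraries of 12 h and 24 h, a difference of 1.98 on the log2 scale (SE 0.30, limma adjusted p = 0.000554). CYB5B, a cytochrome of the outer mitochondrial membrane, had 1.42 and 1.29 at 0 h and between -0.23 and 0.05 later (difference 1.41, SE 0.20, adjusted p = 0.00034). RAB10, a GTPase of vesicle traffic, differed by 1.21 (SE 0.19, adjusted p = 0.000554) and LXN, an inhibitor of carboxypeptidases, by 1.89 (SE 0.37, adjusted p = 0.0167). HSPB1, a small heat shock protein, went from 0.61 and 1.203 at 0 h to 3.02, 2.37, 2.93 and 2.66, a difference of -1.84 (SE 0.35, adjusted p = 0.0103), and TIMP2, an inhibitor of metalloproteases, from 0.34 and 0.61 to between 1.57 and 2.28 (difference -1.49, SE 0.32, adjusted p = 0.0407). Without either 0 h library, or without replicate 1 of 12 h, 0 genes were less variable in untreated cells by limma, and without 0 h replicate 2 only 2 were more variable. From 0.5 h to 12 h the level moved the same way as the excess for HSPB1 (edgeR log2 change 1.49), CYB5B (-1.03), CTSL (-0.80) and RAB10 (-0.66). LXN hardly changed in level (-0.06, edgeR adjusted p = 0.903). How far level accounts for these differences in excess was not tested.

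Whether genes that vary together in untreated cells also moved together under TGFβ was read from summed libraries of treated cells, 12 h against 0.5 h, which left out the 0 h libraries that had chosen the genes. In such sums fewer cells of a kind and less RNA per cell cannot be told apart. With edgeR, 761 of 10260 genes were higher at 12 h (7.42%) and 452 lower (4.41%), and DESeq2 called 260 lower. Of the 23 genes of the AKR1C2 group 12 were lower and 1 higher, with a median log2 change of -0.49 against -0.01 over all genes. AKR1B10 stood at 7124 and 7614 CPM at 0.5 h and at 2907 and 3181 CPM at 12 h, a log2 change of -1.27 (SE 0.14, edgeR adjusted p = 2.6e-06). CA12 changed by -1.71 (SE 0.21, adjusted p = 2e-05). AKR1C2 itself went from 3426 and 3386 to 2399 and 3351 CPM and did not pass (edgeR adjusted p = 0.442).

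The AXL group split. Of its 18 genes 5 were lower and 3 higher, with a median of -0.28. KRT7 rose from 3216 and 2989 to 7048 and 5992 CPM (log2 change 1.08, SE 0.17, edgeR adjusted p = 0.00013), and VIM rose by 0.58. AXL fell from 484.2 and 458.1 to 216.5 and 234.7 CPM (log2 change -1.06, SE 0.18, edgeR adjusted p = 0.000406), and CAV1 changed by -0.76. Of the 17 genes of the KRT18 group 7 were lower and 1 higher, with AGR2 at -1.34 and CEACAM6 at -0.58 (edgeR adjusted p = 0.0492). Of the 39 genes of the KPNA2 group 0 passed in either direction by edgeR, and of the 10 of the H4C3 group 3 were lower. Varying together over untreated cells thus went with changes in both directions at 12 h, as for AXL and VIM. KRT7 did not join AXL when groups were built in replicate 2.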

How the data were processed

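The deposited table held counts of UMIs per gene and well for 29035 genes, whole numbers up to 2845 that the authors had not normalized. The submitters' processing notes list HISAT2 2.2.1, featureCounts 2.0.1, Trim Galore 0.6.7, UMI-tools and the build GRCh38. Not given in the sources used here were the annotation release and how strand was set, so overlapping and antisense genes have uncertain counts. Gene positions were taken from GENCODE 44. No reads were used.

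Each gene's deviation was taken over 15858 nuclear protein-coding genes, with an expected count of the cell's protein-coding UMIs times the gene's share of the library. The trend was a lowess fit (span 0.3). A gene was called at 1.5 times the trend in both libraries. No doublet caller was run, since single cells were sorted. Gene groups came from average linkage in replicate 1, cut at a mean r of 0.2, with at least 4 genes. The genes, lists, limits and groups were chosen with earlier results of these data known. Wells were assigned by the time and replicate in their column names.

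Libraries, not cells, were the replicates in tests, which used limma 3.58.1 (empirical Bayes with trend, robust) on the excess and the edgeR 4.0.16 quasi-likelihood test on summed counts, with Benjamini-Hochberg adjustment at 0.05. The edgeR comparison and the chromosome values were added after data were seen. Kept cells of the 0 h libraries summed to 3012920 and 2728461 protein-coding UMIs. Shares of cells with a UMI cover counting error only, and genes under 0.25 UMIs per cell were left out for lack of depth. The named genes were the 4 markers, the 15 most abundant genes, the 30 most variable, up to 4 per list, up to 8 per group and up to 10 per limma comparison and direction. Other genes named were picked after values were seen, or are members of a list or group named as such. Scripts were tested on simulated data. Alternatives were DESeq2 1.42.0, Seurat 5.3.0 variable genes, thinned cells, other limits and left-out libraries. Python 3.11.15 and R 4.3.3 were used. Some genes that meet the naming rule are not reported here.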

Additional observations from a re-analysis of the deposited data

Results flagged for a closer look

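Long non-coding RNAs lie outside the protein-coding measurement above, and 7 of 120 tested were at 1.5 times the trend or more in both untreated libraries, beside 3.78% of the tested protein-coding genes. MALAT1, a nuclear-retained transcript, had the widest spread, with a mean over both libraries of 6.58 times the trend. Smaller values were found for GACAT2 at 2.33, AC025171.1 at 2.31 and IGFL2-AS1 at 2.08 times. IGFL2-AS1 is named as an antisense transcript, and without a known strand setting its molecules cannot be told apart from those of overlapping genes.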

How the results depend on the processing

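Of the 243 variable genes, 126 stayed at 2 times the trend and 161 after thinning cells to 10308 protein-coding UMIs, which tested fewer genes. Leaving out a replicate gave 326 to 347. Pairs that vary together numbered 599 after thinning, 1957 under stricter limits that left 7 and 13 cells, and 1370 to 1390 in 1 library alone. Oppositely varying pairs numbered 54, 1642 and 268 to 276. In those few strict cells the mean r in replicate 2 reversed to -0.11 for the FGB group and -0.079 for the BMP4 group. Groups built in replicate 2 instead had 110 genes that held, 90 of them shared, but the KRT18, JUP and RDH10 groups did not come together again. For 0 h against 12 h and 24 h, leaving out a library gave 2 to 4 more variable genes (2 without 0 h replicate 2) and 0 to 2 less variable ones (0 without either 0 h library or without the first library of 12 h), and 54 cells per library gave 1. With a replicate block these were 5 and 3, and 0 and 0 against 0.5 h. Deviations of same-numbered libraries correlated at r of -0.022 to 0.202 over 15 pairs of time points in excess (2 over 0.1) and of -0.139 to 0.516 in level (10 over 0.1), and since not every pair was over 0.1 the numbers were not taken as pairing. For 12 h against 0.5 h, DESeq2 gave 540 higher and 260 lower, the replicate block 883 and 586, and leaving out a library 445 to 525 and 228 to 291. The cause of these shifts was not tested. Over all alternatives, 62 checks of main counts stayed within 1.5 times and 23 did not, and of checks of single values 66 moved little, 31 moved further and 2 reversed. Checks of main counts compared the size of a count and not which genes were called. Stricter limits on cells gave 292 variable genes, with 115 of the 243 among them. Cells low in both cell cycle lists gave 184, with 149 of the 243 among them. Genes under 0.25 UMIs per cell were beyond this depth.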
